A study of Rattus norvegicus with 23 samples.

Results

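CA3 tissue of aged rats that learned poorly was compared with CA3 tissue of aged rats that learned as well as young ones. The comparison took 14 of the 23 arrays of the series by their titles, 8 labelled aged impaired (replicates 1 to 8) and 6 labelled aged unimpaired (replicates 1, 2, 4, 6, 7 and 8). It was made across the 14647 of 31042 non-control probe sets that reached a log2 value of 4 on at least 6 of the 23 arrays. All animals were male Long-Evans rats, housed singly and given no treatment; both aged groups were 24 to 26 months old, and the 9 young rats used as a reference were 6 months old. Each rat was scored in the Morris water maze by its distance from the hidden platform on probe trials. Aged rats with a score inside the range of the young were called unimpaired, and those with a worse score were called impaired, so the groups differ by a cut on a behavioural score and not by an intervention. Each array held RNA of dissected CA3 from an animal of its own, taken after testing had ended, on the Affymetrix GeneChip Rat Genome 230 2.0 array. The number of arrays limits the precision of every value below.

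The CA3 field is a hippocampal region of pyramidal neurons that receive mossy fibres from the dentate gyrus and are joined to each other by recurrent collaterals. It is known for rapid encoding and for recalling a whole memory from part of its cues. Dissected tissue holds pyramidal cells together with interneurons, astrocytes, oligodendrocytes, microglia and vessels.

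Some markers of CA3 were strongly expressed in every group. Nrip3, Chgb and Cpne4, genes enriched in CA3 pyramidal cells, had group means between 10.8 and 12.3 on the log2 scale in these groups. Prkcd, another marker of the list, lay lower on this scale, from 5.94 to 6.71 across the arrays. Of the 12 measured CA3 markers, 5 were higher and 7 lower in impaired than in unimpaired animals. Their median log2 difference was -0.07 (range -0.34 to 0.23). At an adjusted p of at most 0.05, 0 of them passed (1 higher and 3 lower at an unadjusted p under 0.05, limma). Of all 8726 genes, each by its probe set with the highest mean, 38 (0.435%) passed. The CA1 marker Fibcd1 (group means 8.1 to 8.3) and the dentate marker Prox1 (7.1 to 7.3) were also measured; from which cells their signal came was not tested. The mean of the 8 CA1 markers, centred per gene, ran from -0.39 to 0.87 in aged impaired and from -0.21 to 0.20 in aged unimpaired arrays. The mean of the 5 dentate markers ran from -0.49 to 0.62 and from -0.29 to 0.55. Both ranges overlapped between the groups. The CA3 marker mean, centred in the same way, ran from -0.34 to 0.10 in aged impaired and from -0.09 to 0.07 in aged unimpaired arrays. Aged impaired 2 had the lowest CA3 mean of all arrays (-0.34), with the next impaired array at -0.13. It also had the highest CA1 mean (0.87) and the highest dentate mean (0.62) of all arrays. Whether its dissection held more tissue of other fields was not tested. In bulk tissue, fewer cells of a type and less RNA per cell cannot be told apart.

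Of the 14647 probe sets, 114 (0.778%) differed between aged impaired and aged unimpaired CA3 at an adjusted p of at most 0.05 (limma, all 23 arrays fitted with a mean per group, Benjamini-Hochberg adjustment). Of these, 99 (0.676%) were higher in impaired animals and 15 (0.102%) were lower. The higher ones named 75 genes and the lower ones 12. The higher probe sets had a median log2 difference of 0.66 (range 0.26 to 1.75), and 17 of them reached 1, a doubling. The lower ones had a median of -0.32 (range -0.60 to -0.15), and 0 of them reached that size. At an unadjusted p under 0.05, the balance ran the other way, with 960 probe sets higher (6.55%) and 1261 lower (8.61%). Over all tested probe sets the median difference was -0.02.

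**Figure D1:**
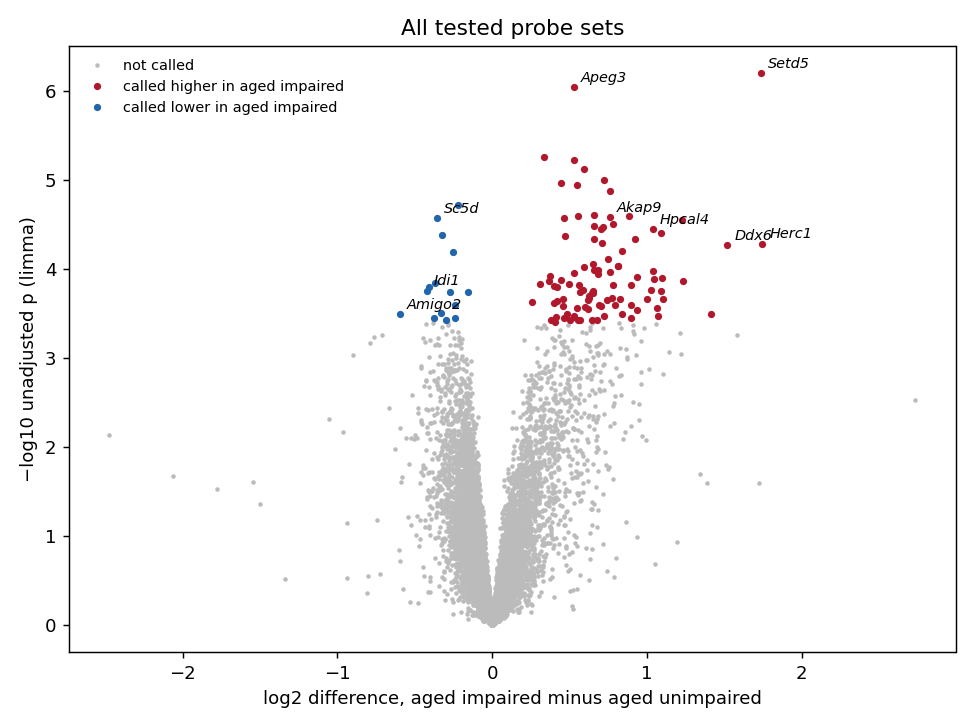
Each point is 1 of the 14647 tested probe sets, plotted by its log2 difference between 8 aged impaired and 6 aged unimpaired arrays (x axis) and by the -log10 of its unadjusted limma p (y axis). The 99 probe sets called higher in impaired animals reach a log2 difference of 1.75, and the 15 called lower stay within -0.60 to -0.15.

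The set of calls depended on single arrays and on the reference animals. Leaving out aged unimpaired 7 raised the count from 114 to 447, and leaving out aged impaired 5 raised it to 179. The count fell to 2 without aged unimpaired 4, to 4 without aged unimpaired 6, to 5 without aged unimpaired 1 and to 13 without aged unimpaired 8. It fell to 19 without aged impaired 2, 25 without aged impaired 8, 28 without aged impaired 3, 30 without aged impaired 6, 33 without aged impaired 1 and 51 without aged impaired 7. With the 14 aged arrays fitted alone, limma called 0 probe sets (smallest adjusted p = 0.0603; 894 higher and 1155 lower at an unadjusted p under 0.05). Of the 46 called probe sets named here, those of Setd5 and Apeg3 kept their call whichever single aged array was left out, and each of the others lost it at least once.

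The 3 largest called differences were higher levels of Herc1, Setd5 and Ddx6 in impaired animals. Herc1, a giant HECT-domain ubiquitin ligase, ran from 6.45 to 7.92 (median 6.52) in impaired and from 3.75 to 6.59 (median 5.07) in unimpaired animals. Only aged unimpaired 7 reached into the impaired range, and the log2 difference was 1.75 ± 0.35 (SE; adjusted p = 0.0261, limma). Setd5, a SET-domain chromatin regulator, ran from 5.62 to 7.05 (median 6.26) in impaired and from 3.81 to 5.87 (median 4.55) in unimpaired animals. Its difference was 1.74 ± 0.25 (adjusted p = 0.00654, limma). The exact two-sided permutation p was 0.000666 over 3003 assignments, not adjusted for choosing the gene by these same arrays. Of the 8 impaired arrays, 7 lay above all 6 unimpaired ones, and aged unimpaired 7 again was the highest of its group. Ddx6, an RNA helicase of processing bodies that represses translation and promotes decay, had a median of 8.19 (7.60 to 8.86) in impaired and of 6.49 (5.40 to 8.17) in unimpaired animals. The difference was 1.52 ± 0.31 (adjusted p = 0.0261, limma), with 4 impaired arrays above every unimpaired one.

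Aff4 and Nipbl also stood among the 12 largest rises of probe sets that name a gene. Aff4, the scaffold of the super elongation complex, ran from 5.82 to 6.90 (median 6.25) in impaired and from 4.09 to 5.96 (median 4.98) in unimpaired animals. Its difference was 1.22 ± 0.23 (adjusted p = 0.0238, limma), and only the lowest impaired array fell below the highest unimpaired one. Nipbl, which loads cohesin onto chromosomes, was higher by 1.10 ± 0.25 (adjusted p = 0.0418, limma), but only 2 impaired arrays lay above all unimpaired ones. Ubn2 and Ankrd11 were among the 12 smallest p values. Ubn2, a histone H3.3 chaperone subunit, was higher by 0.66 ± 0.12, and Ankrd11, a regulator of histone acetylation, was higher by 0.56 ± 0.10 (both adjusted p = 0.0238, limma).

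Kif5c, Hpcal4 and Slc6a6 were further members of those 12 rises. Kif5c, a neuronal kinesin-1 heavy chain, ran from 9.23 to 9.62 in impaired and from 7.48 to 9.54 in unimpaired animals, a difference of 1.05 ± 0.23 (adjusted p = 0.0393, limma). The impaired arrays were tightly grouped, and the spread lay in the unimpaired ones. Hpcal4, a neuronal calcium sensor, separated the groups, with 6.63 to 7.12 (median 6.78) against 5.08 to 6.53 (median 5.74). The difference was 1.04 ± 0.20 (adjusted p = 0.0238, limma). The lack of overlap fixes the exact permutation p at 0.000333, the smallest that 8 against 6 arrays can give, so that value is a description. Slc6a6, the taurine transporter, had a difference of 1.09 ± 0.24 (adjusted p = 0.0393, limma), but its unimpaired median of 3.31 lay below 4, the level of the filter, and against that level it was at least 1.42-fold higher. Without the impaired arrays this probe set would not have passed the filter, so its test is a description. A far brighter probe set of Slc6a6 (mean 9.96 against 4.04) differed by 0.20 ± 0.07 (adjusted p = 0.145, limma). The rest of the 12 were Pnma8b (1.24 ± 0.27), Pacs2 (1.04 ± 0.22), which sorts cargo between the endoplasmic reticulum and mitochondria, Strbp (1.02 ± 0.23), an RNA-binding protein, and Bmpr2 (0.94 ± 0.22), a receptor for bone morphogenetic proteins. Of the 17 called rises of 1 or more, 6 belonged to probe sets that name no single gene.

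Smaller differences were measured with less spread. Apeg3, annotated as a non-coding RNA within the imprinted Peg3 locus, ran from 7.88 to 8.34 (median 8.09) in impaired and from 7.34 to 7.83 (median 7.59) in unimpaired animals. The groups did not overlap, and the difference was 0.53 ± 0.08 (adjusted p = 0.00654, limma). The strand that its probes read was not checked. Akap9, a scaffold that holds protein kinase A at the centrosome and Golgi, lay between 4.05 and 5.26 in impaired animals, while all 6 unimpaired arrays lay between 3.89 and 4.02. The difference of 0.76 ± 0.14 (adjusted p = 0.0238, limma) amounted to a level at least 1.68-fold higher against 4, the level of the filter, near which every unimpaired and young animal lay (3.71 to 4.13 in young). Among the other genes with the smallest p values were Pals2 (0.53 ± 0.09), a membrane scaffold, Lpgat1 (0.72 ± 0.13), a lysophospholipid acyltransferase, Tpm3 (0.44 ± 0.08), a tropomyosin, Xiap (0.76 ± 0.14), a caspase inhibitor, Dag1 (0.46 ± 0.09), the dystroglycan precursor, and Wdfy1 (0.78 ± 0.15). Pals2, Tpm3 and Dag1 each had another probe set with the opposite sign, given below.

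**Figure D2:**
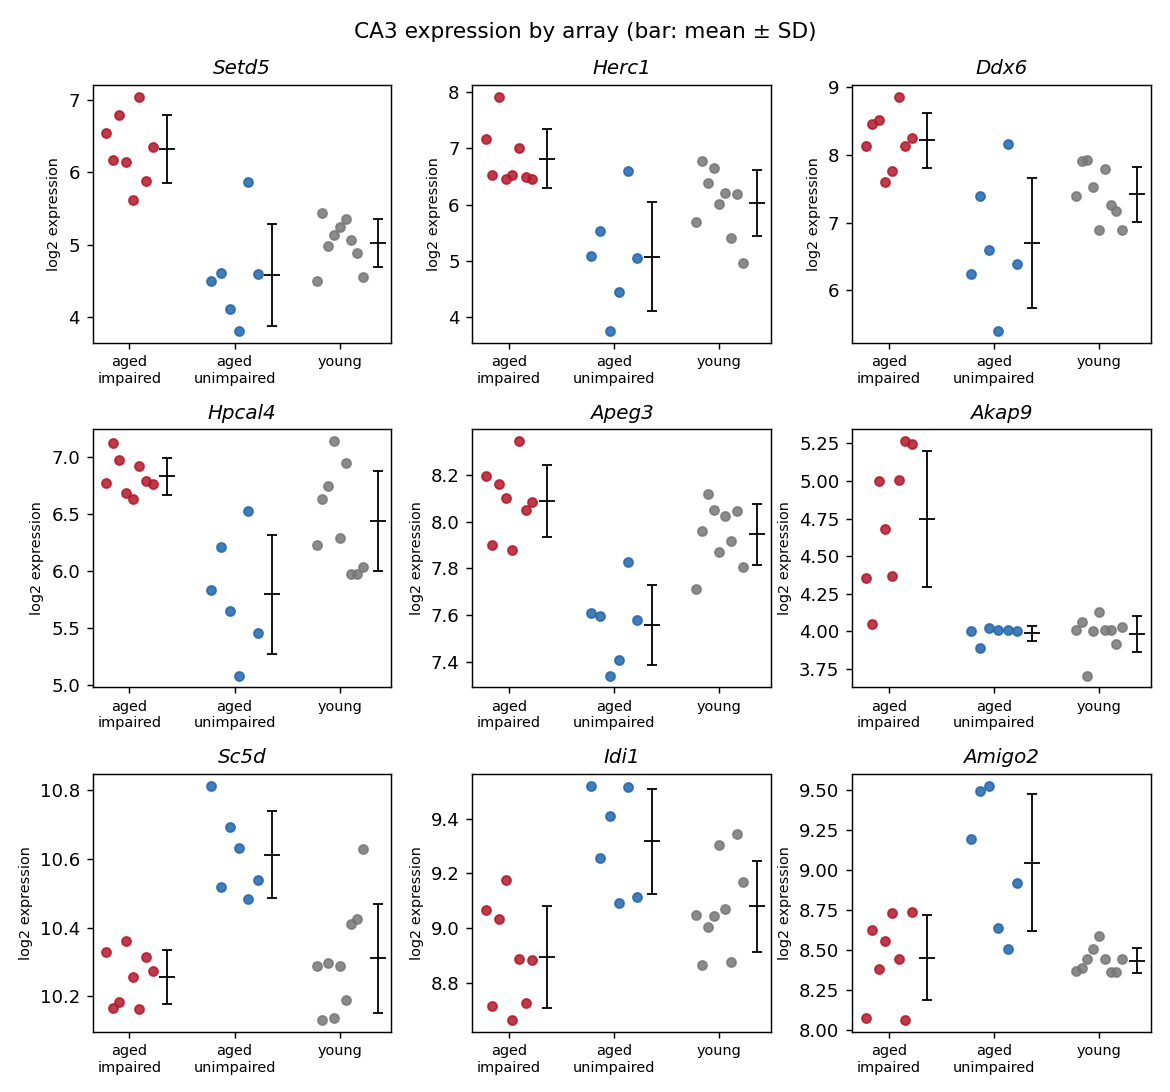
Log2 expression of 9 named probe sets, 1 point per array, for 8 aged impaired, 6 aged unimpaired and 9 young rats, with the mean and SD of each group beside the points. Setd5 and Herc1 are high in the impaired group with 1 unimpaired array (aged unimpaired 7) near it, Akap9 lies near 4 in unimpaired and young animals, and Sc5d, Idi1 and Amigo2 are highest in unimpaired animals.

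The unimpaired animals were the more variable group for these genes. Over the 99 called rises, the median SD was 0.38 in unimpaired, 0.21 in impaired and 0.22 in young animals, against 0.11, 0.14 and 0.12 over all tested probe sets. The SD was larger in unimpaired than in impaired animals for 88 of the 99, and for 33.9% of all tested probe sets. The SE and p values of limma rest on a spread pooled over all groups. Where the unimpaired group was the more variable, they can overstate the precision, as for Kif5c (SD 0.77 in unimpaired and 0.15 in impaired animals). Aged unimpaired 6 was the lowest of its group in 70 of the 99, and aged unimpaired 7 the highest in 89. The young mean lay between both aged means in 94 of the 99, with a median difference from young of 0.38 in impaired and -0.28 in unimpaired animals. These contrasts share the aged arrays and the young arrays, so the values stand side by side only. For Setd5, impaired animals were above young by 1.30 (adjusted p = 0.0014, limma) and unimpaired animals were below by 0.44 (adjusted p = 0.38, limma). For Apeg3, the order of sizes was the other way, with 0.14 above young in impaired (adjusted p = 0.20, limma) and 0.38 below young in unimpaired animals (adjusted p = 0.0095, limma). In all, 1429 probe sets (9.76%) differed between impaired and young animals, and 302 (2.06%) between unimpaired and young animals. The first count rests on 8 aged arrays and the second on 6, so they differ in power and do not measure distance from young.

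A measure taken from control rows also differed between the aged groups. The table holds control rows whose names do not match what their values track: the row named GAPDH 5′ correlated with the Actb probe set at r = 0.86 and the row named GAPDH M at r = 0.61 (23 arrays, a description of shared arrays), while the row named GAPDH 3′ sat at the floor. The gap between the first 2 of these rows was 2.14 ± 0.09 (SD, n = 8) in impaired and 2.28 ± 0.09 (SD, n = 6) in unimpaired animals (exact two-sided permutation p = 0.0153, 0.0306 after adjustment over 2 such gaps). The ranges were 2.02 to 2.27 and 2.12 to 2.39, and aged unimpaired 7 and 8, with 2.12 and 2.26, lay within the impaired range, although the mean of the called rises was 0.16 in the former and -0.39 in the latter. Aged unimpaired 6 had the widest gap of the aged arrays, and aged impaired 5, with 2.27, the widest of the impaired ones. The gap of 2 further rows, which tracked Gapdh, was 0.44 ± 0.04 in impaired (SD, n = 8) and 0.54 ± 0.15 in unimpaired animals (SD, n = 6; exact permutation p = 0.0496, 0.0496 after adjustment). With the first gap as a covariate, limma called 0 probe sets (smallest adjusted p = 0.149; 407 higher and 869 lower at an unadjusted p under 0.05), and the named differences had a median of 0.785 of their size without it. Setd5 then differed by 1.36 and Herc1 by 1.40. Which stretch of the transcript each row reads is not known here, and the part of the gap in the calls was not tested further.

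**Figure D3:**
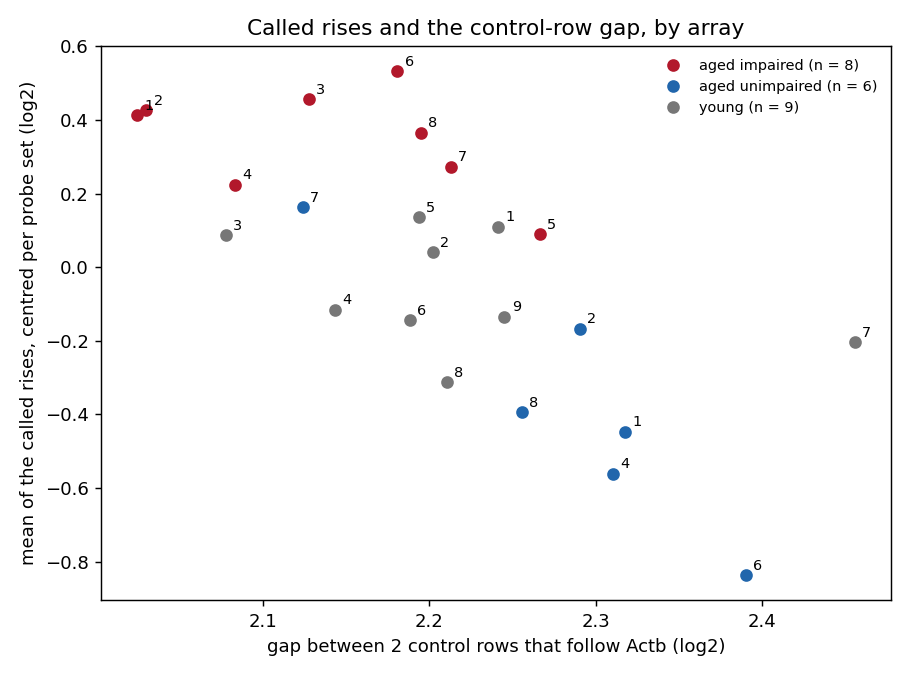
The mean of the 99 called rises, centred per probe set (y axis, log2), against the gap between the 2 control rows that track Actb (x axis, log2), 1 point per array, numbered by replicate. Impaired arrays lie between 0.09 and 0.53, unimpaired arrays between -0.84 and 0.16, and aged unimpaired 7 lies with the impaired arrays on both axes; since these probe sets were chosen by the difference, the vertical separation is a description.

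Most other probe sets of the same genes showed smaller differences than the called ones. For 63 of the called rising probe sets, of 61 genes, another tested probe set of the same gene was not called. Those 95 other probe sets had a median log2 difference of 0.02 (range -0.27 to 0.72), with 50 above and 45 below 0. Since the called probe sets were chosen for their difference and the others for the lack of a call, the direction of this contrast is set by the choice and the values are a description. With the 4 other probe sets that were called too (of Tpm3 and Sbf1) counted in, the median over 99 was 0.02. When the 1 with the highest mean was taken for each, 41 of 63 lay within 0.1 of no difference. The other probe set of Setd5 differed by 0.03 and that of Ddx6 by -0.02, and those of Apeg3 by -0.05 and -0.07. Akap9, Aff4 and Dag1 each had another probe set at -0.03. Those of Pals2 were at -0.08, -0.03 and 0.03. Those of Tpm3 ran from -0.21, for the one with the highest mean, to 0.54. Hpcal4 had one that rose less (0.65 ± 0.16, adjusted p = 0.0505, limma) and one at -0.02 ± 0.05. Kif1a was an exception, with 0.41 ± 0.10 for the called probe set and 0.44 ± 0.14 for the other (adjusted p = 0.04997 and 0.114, limma). Where in the transcripts these probe sets lie was not examined. The median span of the genes of the called rises in the GRCr8 annotation was 64.7 kb (75 genes), and that of the called falls 79.6 kb (12 genes), against 25.3 kb over the 8700 tested genes with a span.

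**Figure D4:**
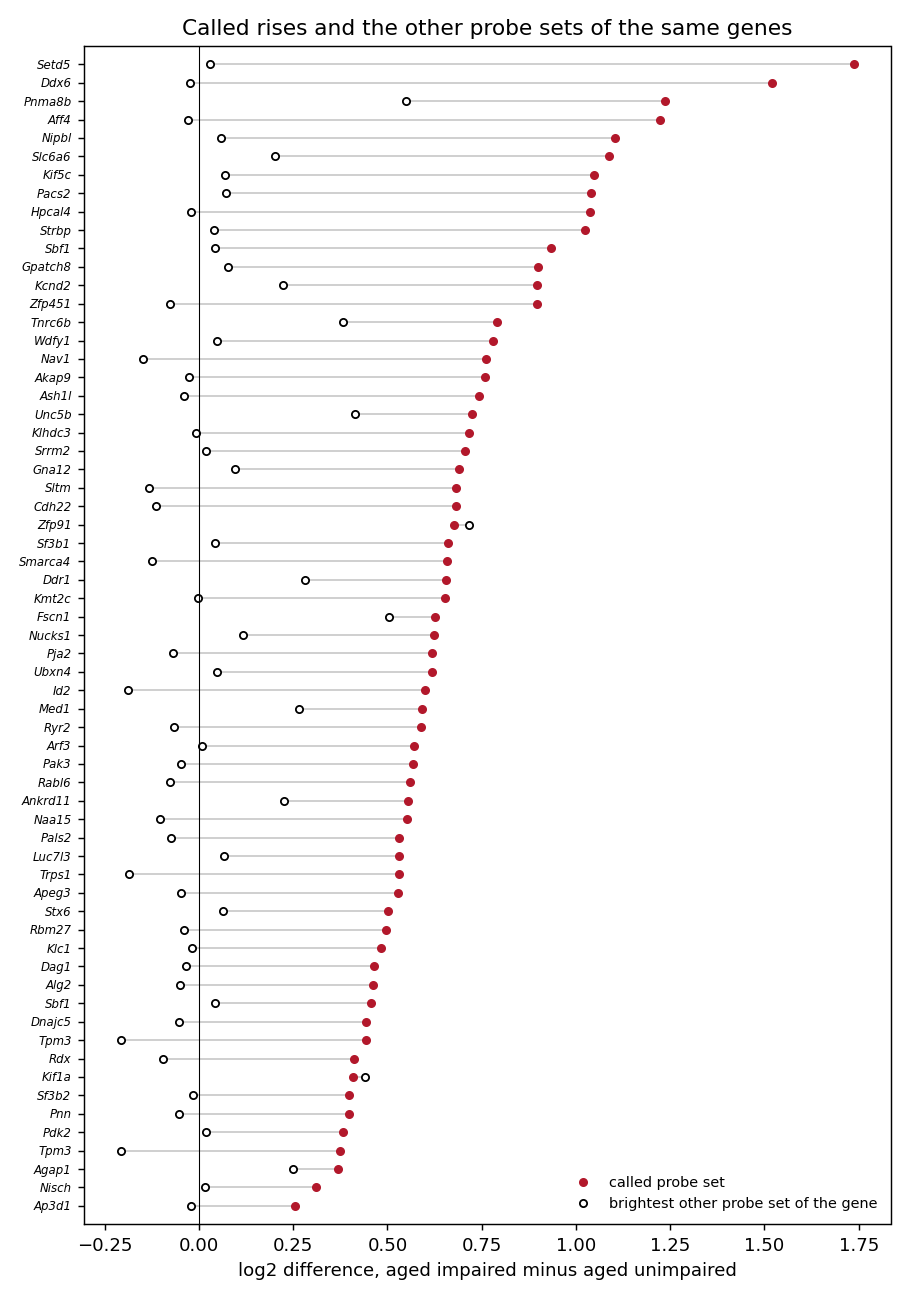
Log2 difference between aged impaired and aged unimpaired animals for each called rising probe set that has an uncalled probe set of the same gene (filled points) and for the uncalled one with the highest mean (open points). The filled points have a median of 0.62 and 41 of the 63 open points lie within 0.1 of 0; Zfp91 and Kif1a are among the few whose open point lies beside the filled one.

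The lower genes were fewer and showed smaller differences with a tighter spread. Sc5d and Idi1 are enzymes of cholesterol synthesis: Idi1 isomerises isopentenyl diphosphate early in the pathway, and Sc5d desaturates the sterol ring near its end. Sc5d ran from 10.16 to 10.36 (median 10.27) in impaired and from 10.48 to 10.81 (median 10.58) in unimpaired animals. The groups did not overlap, and the difference was -0.36 ± 0.07 (adjusted p = 0.0238, limma). The exact permutation p of 0.000333 follows from the lack of overlap. Idi1 ran from 8.66 to 9.18 in impaired and from 9.09 to 9.52 in unimpaired animals, with 7 of 8 impaired arrays below all unimpaired ones and a difference of -0.42 ± 0.09 (adjusted p = 0.0393, limma). The difference for Sc5d was mainly on the unimpaired side, 0.30 above young (adjusted p = 0.018, limma) against -0.05 in impaired animals (adjusted p = 0.61). The other probe sets of both genes pointed the same way, at -0.22 and -0.07 for Sc5d and at -0.31 for Idi1, without a call.

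The promoters of both genes are shown because these were the called members of a pathway whose genes are commonly driven together by SREBP-2 with the CCAAT-binding factor NF-Y. Each is the stretch of 250 bases before the annotated start (RefSeq, GRCr8, minus strand), at chr8:51538278-51538527 for Sc5d and chr17:66547525-66547774 for Idi1, with CCAAT or its complement ATTGG in capitals.
Sc5d: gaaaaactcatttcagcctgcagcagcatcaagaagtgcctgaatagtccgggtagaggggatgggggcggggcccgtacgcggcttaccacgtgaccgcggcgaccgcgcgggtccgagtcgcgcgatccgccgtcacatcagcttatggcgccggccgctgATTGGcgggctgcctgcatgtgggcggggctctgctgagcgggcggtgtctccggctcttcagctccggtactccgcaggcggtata
Idi1: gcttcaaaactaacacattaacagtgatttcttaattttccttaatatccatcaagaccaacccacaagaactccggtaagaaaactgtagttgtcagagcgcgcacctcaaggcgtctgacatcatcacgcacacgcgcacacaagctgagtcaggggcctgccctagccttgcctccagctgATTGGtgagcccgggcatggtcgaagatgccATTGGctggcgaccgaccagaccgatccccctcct
Sc5d held 1 CCAAT match, starting 87 bases before the start, and Idi1 held 2, at 66 and 35 bases. Of all 27457 promoters of this length, 34.3% held 1 or more on either strand. Neither held TCACNCCAC, a form of the sterol regulatory element found in 0.976% of promoters on either strand. GGGCGG, the core of the Sp1 site, was found 3 times in Sc5d and 0 times in Idi1, and in 32.4% of promoters. The matches describe letters in this window and not bound sites.

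Over the 21 measured genes of cholesterol synthesis, 17 were lower and 4 higher in impaired animals, where 5424 of all 8726 genes (62.2%) were lower, and 2 of the 21 were called, both lower, against 38 of 8726 genes (0.435%) when each gene was represented by its probe set with the highest mean. The list's median was -0.06, beside -0.02 over all genes. Scd, the stearoyl-CoA desaturase counted with this list, separated the groups (7.07 to 7.23 against 7.27 to 7.63) but did not pass (-0.33 ± 0.10, adjusted p = 0.099, limma). Mvd (-0.32 ± 0.11, adjusted p = 0.166, limma) and Acat2 (-0.21 ± 0.07, adjusted p = 0.159, limma) did not pass either. Srebf2, which encodes SREBP-2, had a difference of -0.02 ± 0.04.

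Amigo2, an adhesion protein that marks CA2 pyramidal cells, showed the largest called fall. It ran from 8.06 to 8.73 (median 8.50) in impaired, from 8.51 to 9.53 (median 9.06) in unimpaired and from 8.36 to 8.59 in young animals. The unimpaired level was the one apart from young, by 0.61 (adjusted p = 0.0196, limma), and the difference between the aged groups was -0.60 ± 0.14 (adjusted p = 0.0489, limma). Aged unimpaired 6 and 7, with 8.63 and 8.51, lay inside the impaired range. The other measured CA2 markers, Rgs14 (-0.20 ± 0.07), Pcp4 (-0.15 ± 0.09) and Necab2 (-0.04 ± 0.05), did not pass. The mean of the 4 CA2 markers, centred per gene, ran from -0.22 to -0.04 in impaired and from 0.03 to 0.21 in unimpaired animals, without overlap, and from -0.08 to 0.16 in young animals. Amigo2, already called, is part of that mean. Over the other 3 markers the mean ran from -0.33 to -0.00 in impaired and from -0.10 to 0.10 in unimpaired animals, and the groups overlapped (a value added after the data were seen). Whether the dissections held unequal shares of CA2 was not tested.

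The remaining called falls were spread over several processes. Rerg, a Ras-like growth inhibitor, ran from 8.72 to 9.37 in impaired and from 9.47 to 9.67 in unimpaired animals, a difference of -0.37 ± 0.08 (adjusted p = 0.0393, limma). Impaired animals were the group apart from young for Rerg, by -0.41 (adjusted p = 0.0015, limma). Tank, an adaptor of innate immune signalling, was lower by 0.41 ± 0.09 on the log2 scale and Chordc1, an HSP90 cochaperone, by 0.33 ± 0.08 (adjusted p = 0.0393 and 0.0489, limma). Trak1, which links mitochondria to kinesin, differed by -0.27 ± 0.06 and Eif1a, a translation initiation factor, by -0.30 ± 0.07 (adjusted p = 0.0393 and 0.0489, limma). Fnip1, a partner of folliculin, separated the groups at -0.25 ± 0.05 (adjusted p = 0.0294, limma), and both aged groups lay above young, by 0.17 and 0.42. Klhl2 (-0.24 ± 0.06) and Wwc3 (-0.15 ± 0.03) were also called. Cmip, an adaptor protein, separated the groups at -0.32 ± 0.06 (adjusted p = 0.0246, limma), but its other probe sets differed by 0.46 and 0.10 in the opposite direction.

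Groups that did not overlap were found for 18 probe sets that were higher (0.123%) and 24 that were lower (0.164%) in impaired animals. Among the widest such gaps were also genes that did not pass the test. Atp1b2, a sodium pump subunit of glia, had a difference of 0.30 ± 0.12 (adjusted p = 0.199, limma), and Sfswap, a splicing regulator, 0.32 ± 0.10 (adjusted p = 0.125, limma). Rbm27, an RNA-binding protein, was called at 0.50 ± 0.11 (adjusted p = 0.0393, limma). On the lower side, Kcnh1, the EAG potassium channel, had -0.29 ± 0.11 (adjusted p = 0.207, limma) and Rbm12b -0.42 ± 0.19 (adjusted p = 0.289, limma).

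Across 47 gene lists, 8 genes were called by the probe set with the highest mean, 4 higher and 4 lower. Over all genes, 38 of 8726 (0.435%) were called in this way, 29 higher and 9 lower. The lists hold 1230 entries, of which some were not measured. The higher were Grm3, the presynaptic and glial glutamate receptor mGlu3 (0.46 ± 0.10), Cplx2, a complexin that clamps vesicle fusion (0.77 ± 0.18), Srrm2, a scaffold of the spliceosome and of nuclear speckles (0.70 ± 0.14), and Kif5c. The lower were Amigo2, Sc5d, Idi1 and Chordc1. With the probe set of the largest spread per gene, the count was 15, of which 11 were higher. Over all 8726 genes that choice gave 69 higher and 10 lower. Called members seen only by another probe set were the ryanodine receptor Ryr2 (0.59 ± 0.13), the potassium channel Kcnd2, or Kv4.2 (0.90 ± 0.21), the vesicle chaperone Dnajc5 (0.44 ± 0.10), the pyruvate dehydrogenase kinase Pdk2 (0.38 ± 0.09), the splicing factors Sf3b1 (0.66 ± 0.13) and Luc7l3 (0.53 ± 0.13), and the kinesin subunits Klc1 (0.48 ± 0.11) and Kif1a. The probe set with the highest mean of each of these genes was not called. It differed by -0.07 for Ryr2, 0.22 for Kcnd2, -0.05 for Dnajc5 and 0.02 for Pdk2. For Sf3b1 it differed by 0.04, for Luc7l3 by 0.07, for Klc1 by -0.02 and for Kif1a by 0.44. In each of Grm3, Cplx2, Srrm2, Ryr2, Kcnd2 and Sf3b1, aged unimpaired 7 was the highest unimpaired array.

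The synaptic and ion channel lists had medians near that of all genes, of which 0.435% were called. Of 24 genes of glutamate receptors and the postsynaptic density, 13 were higher and 11 lower, with a median of 0.00. The 26 synaptic vesicle genes had a median of -0.03, and the 25 potassium and HCN channel genes a median of -0.00. All 9 voltage-gated calcium channel genes were lower in impaired animals, with a median of -0.08, but 0 passed (limma), also at an unadjusted p under 0.05. The largest was Cacna1d at -0.23 ± 0.15. Of 18 immediate early genes, which report recent neuronal activity, 0 were called (1 higher and 2 lower at an unadjusted p under 0.05, limma), and the median was -0.01. The 48 splicing and RNA-binding genes had a median of 0.04, with 28 higher.

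No gene of the glial and immune lists was called between the aged groups. The share called over all genes was only 0.435%, so 0 calls in lists of this size say little about them. Of 9 microglial genes, 0 were called (0 at an unadjusted p under 0.05, limma), and the median difference was 0.08. Against young animals, the median was 0.71 in impaired and 0.71 in unimpaired animals. Aif1, which encodes the microglial protein Iba1, ran from 7.52 to 8.09 in impaired and from 7.28 to 7.91 in unimpaired animals (0.22 ± 0.13, adjusted p = 0.451, limma). Of 7 reactive glia genes, 6 were higher and 0 were called (2 higher at an unadjusted p under 0.05, limma), with a median of 0.22. Vim, an intermediate filament of reactive astrocytes, had a difference of 0.45 ± 0.14 (adjusted p = 0.131, limma). The complement inhibitor Serping1 had 0.73 ± 0.28 (adjusted p = 0.204, limma), and the invariant chain gene Cd74 had 0.57 ± 0.51 (adjusted p = 0.655, limma), with ranges of 6.19 to 9.81 and 5.42 to 8.85. The astrocyte list had a median of -0.01. Gjb6, the astrocyte connexin 30, came nearest to a call in it (-0.34 ± 0.09, adjusted p = 0.0676, limma).

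In some lists most members had one sign, with small differences. As given above, 62.2% of all genes were lower in impaired animals and 0.435% were called. Of 16 oligodendrocyte and myelin genes, 15 were higher, with a median of 0.13 and 0 calls (2 higher at an unadjusted p under 0.05, limma). Fa2h, a myelin lipid hydroxylase, was the nearest to passing (0.39 ± 0.11, adjusted p = 0.0845, limma). The mean of this list, centred per gene, ran from -0.24 to 0.20 in impaired and from -0.27 to 0.08 in unimpaired animals. Of 67 oxidative phosphorylation genes, 51 were lower, with a median of -0.03, close to the -0.02 of all genes. Of 29 heat shock and chaperone genes, 24 were lower, with a median of -0.06, and Chordc1 was the called one. Of 38 cytosolic ribosomal protein genes, 27 were higher, with a median of 0.02. Markers of vessels (9 genes, median 0.04) and interneurons (11 genes, median 0.03) held 0 calls (0 at an unadjusted p under 0.05, limma). Choroid plexus was represented by Ttr alone (0.65 ± 0.42) and blood by Hbb alone (0.38 ± 0.23), and neither passed.

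**Figure D5:**
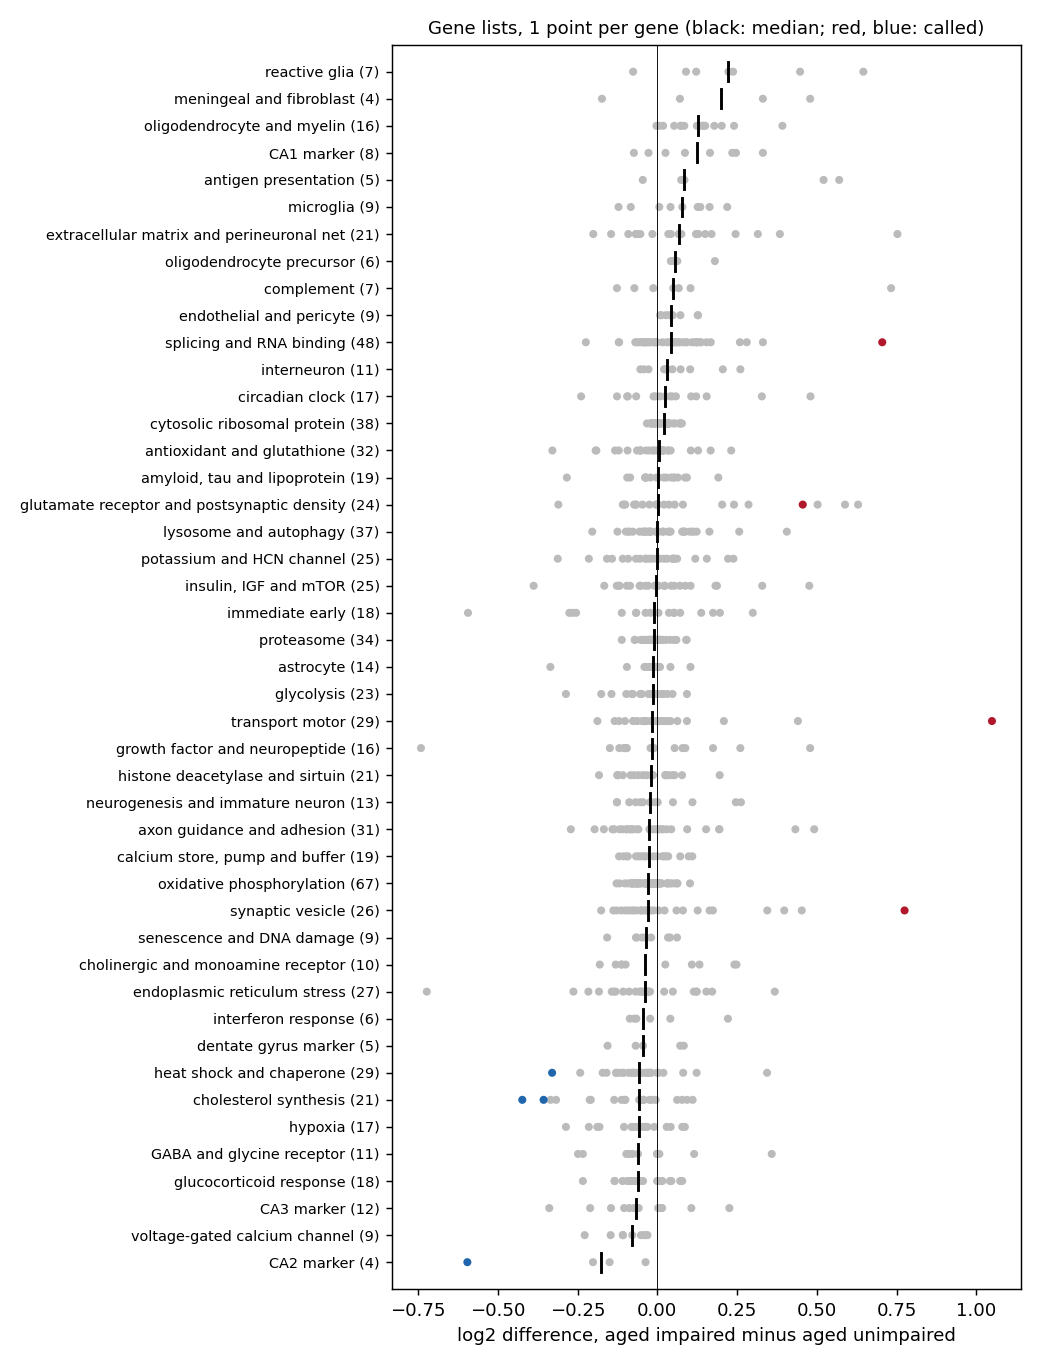
Each row is a gene list with at least 3 measured genes (number in brackets), each point a gene at its log2 difference between aged impaired and aged unimpaired animals, and each black bar the list's median. Red and blue points are the 4 genes called higher and the 4 called lower; the medians lie between -0.18 for CA2 markers and 0.22 for reactive glia genes.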

How the data were processed

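Values were the authors' deposited log2 expression values, 1 column per array for 23 arrays, made with GCRMA per the submitters' processing notes (version not given in the sources used here). GCRMA corrects background by probe sequence, normalizes by quantiles and summarises probes, so low values gather at a floor near 2.19. No scanner files or detection calls were used. Of 31099 probe sets, 57 were controls; 20826 of the others name 1 gene, 436 several and 9780 none, and genes were named only from the first kind. Limma 3.58.1 in R 4.3.3 was fitted to the 14647 tested probe sets on all 23 arrays with a mean per group (20 residual degrees of freedom) and tested on simulated data beforehand. Errors beside differences are SE from a spread pooled over all groups. Single values were tested by exact two-sided permutation. For named genes, chosen by the same arrays, the permutation p is unadjusted and a description. A list gene was represented by its probe set with the highest mean. Genes were named by rule: the 12 largest and the 12 smallest p values in each direction, the 6 widest separations, called list members and, in lists without a call, up to 3 smallest p values. Other genes stand as marker or list examples chosen after their values were seen. The members and lists were chosen with earlier results of these data known. Same-numbered arrays of the aged groups were little correlated, which cannot settle whether they were matched, and the main fit treats them as unpaired. No 2 arrays held identical values. Alternatives included the filter, scaling, array weights, covariates and leaving out each array.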

Additional observations from a re-analysis of the deposited data

Results flagged for a closer look

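Among 108 groups of arrays examined (the 8 aged impaired and the 6 aged unimpaired values of 51 named probe sets, the means of the called rises and falls, and the control-row gap), 7 held an array far from the others of its group. Chance flags about 1 in 20 groups. Aged impaired 2 was the lowest of its group for Rerg (8.72, the next array at 9.14), Cmip (9.15, the next at 9.45) and Kcnh1 (6.97, the next at 7.67). As given above, this array also had the lowest CA3 marker mean and the highest CA1 and dentate marker means of all arrays. For Dag1, aged impaired 7 was the highest with 6.997, the next at 6.76. Among unimpaired animals, aged unimpaired 2 was the lowest for Akap9 (3.89, the next at 4.003), aged unimpaired 8 the lowest for Atp1b2 (9.32, the next at 9.45) and aged unimpaired 6 the lowest for Sfswap (6.49, the next at 6.88).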

How the results depend on the processing

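The 114 calls remained within 1.5 times under a stricter filter (141), a floor at 4 (118), centring (165) and an intensity trend with a robust prior (153). They were 180 after quantile normalization, 222 with array weights (154 higher and 68 lower, or 69.4% higher, against 86.8% before), 51 with CA1 and dentate marker levels as covariates and 2 without a filter. They were 0 with the 14 aged arrays alone and 0 with the Actb-row gap as a covariate. They were also 0 with the Gapdh-row gap, chosen after seeing the data (smallest adjusted p = 0.0825, limma). A replicate block gave 0 too (smallest adjusted p = 0.0544, limma), with 864 higher and 1038 lower at an unadjusted p under 0.05. Of 6 same-numbered pairs of aged arrays, 1 correlated above 0.1, which cannot settle whether same-numbered arrays were matched. The cause of these changes was not tested. Leaving out 1 array gave 2 to 447 calls, and leaving out both aged unimpaired 6 and 7, chosen after seeing the data, gave 232. The count of called list genes was 15 with the probe set of the largest spread, against 8, and 7 after centring. The differences of the 51 probe sets named as called or as separated were followed through these settings, each where it passed the filter, and 0 changed sign; other named differences were not followed. Values at the floor give no order between animals.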

Other observations

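The widest differences in the table were not called and came from probe sets that were on in some animals and at the floor in others; they were singled out after their values were seen. Scgb1d2 and Scgb1d4, which encode small secreted proteins of the secretoglobin family, were at the floor of 2.19 on all 9 young arrays. Scgb1d4 reached 7.40, 6.16, 7.23 and 6.75 in aged unimpaired 1, 2, 4 and 8, and 6.37 and 5.92 in aged impaired 3 and 5. Scgb1d2 and an unnamed probe set were at 4 or more on the same 6 arrays and on none of the other 17. With 4 of 6 unimpaired and 2 of 8 impaired animals, the differences did not pass (adjusted p = 0.230 for Scgb1d4 and 0.266 for Scgb1d2, limma). Neither would have met the filter without the unimpaired arrays, so these tests are a description.

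A further unnamed probe set was at 4 or more in 6 of 8 impaired, 0 of 6 unimpaired and 3 of 9 young animals (log2 difference 2.73 ± 0.82 SE, adjusted p = 0.102, limma). It passed the filter only through the impaired arrays, so its test is a description. Both tested probe sets of Bcl11b shown here, a transcription factor of neurons, were higher in impaired animals, by 1.58 ± 0.39 and 1.22 ± 0.32 (adjusted p = 0.0561 and 0.0671, limma). Rnf6, a ubiquitin ligase, ran from 3.11 to 7.93 in impaired and from 7.41 to 8.01 in unimpaired animals, and the difference of -1.55 ± 0.64 did not pass (adjusted p = 0.244, limma).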
